A study of Rattus norvegicus with 6 samples.

Results

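The matricellular and related proteins followed here were periostin (Postn), the thrombospondins (Thbs1, Thbs2, Thbs4 and Comp), tenascin C (Tnc), osteonectin (Sparc), fibronectin (Fn1), collagen triple helix repeat containing 1 (Cthrc1) and fibroblast activation protein (Fap). They are 10 of the 22081 genes in the deposited table, and all 10 were found there by symbol and passed the filter on low counts. The list was chosen by gene family and with the lesion and artery values of these same libraries already known, so the differences between the tissues describe the genes and are no independent test of them.

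RNA sequencing was done on 3 female Sprague Dawley rats in which intracranial aneurysms (IAs) had been induced, with 2 tissues taken from each rat at day 63 after surgery by the sample labels, although a sentence of the animal methods gives an earlier day for sequencing. The first tissue was the unruptured IA lesion at the anterior or posterior communicating artery, called rupture-prone in the study (3 libraries). The second was the remaining circle of Willis, the ring of arteries at the base of the brain, from the same rat (3 libraries). The rats were bought at 10 weeks of age, and in all of them both ovaries had been removed, the left carotid, right external carotid, right pterygopalatine and left renal arteries had been tied off, and the chow held 3-aminopropionitrile (0.12%) and a high salt load (8% sodium chloride). Aminopropionitrile is an inhibitor of the collagen cross-linking enzyme lysyl oxidase. Both tissues therefore carried the same surgery, diet and hormone loss. The circle of Willis is an artery of a diseased animal and not of an untreated one, and the site within the circle cannot be told apart from the presence of a lesion.

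Matricellular proteins are secreted into the extracellular matrix, where they bind collagens, growth factors and cell surface receptors and regulate how cells attach and respond, rather than bearing load as collagen and elastin do. Most are scarce in resting adult arteries and abundant in developing, healing or scarring tissue. Periostin binds collagen I and fibronectin and brings the protease Bmp1 to lysyl oxidase, which links it to collagen cross-linking. Fap is a surface protease of activated fibroblasts, and it is included because it marks the cells that deposit much of this matrix.

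Of the 10 genes, 7 had a promoter entry in the RefSeq table (build GRCr8, whose coordinates differ from those of Rnor6, the build of the deposited table). Shown are the 250 bases before the annotated start of Postn (chr2:140677811-140678060, plus strand), Comp (chr16:19089549-19089798, minus strand), Fap (chr3:67616092-67616341, minus strand) and Tnc (chr5:82476132-82476381, minus strand), because these are the genes with an entry that either exceeded 1.5-fold in all 3 rats or had no overlap between lesions and arteries. Each sequence runs 5′ to 3′ along the gene, and capitals mark a match to a searched motif.
Postn: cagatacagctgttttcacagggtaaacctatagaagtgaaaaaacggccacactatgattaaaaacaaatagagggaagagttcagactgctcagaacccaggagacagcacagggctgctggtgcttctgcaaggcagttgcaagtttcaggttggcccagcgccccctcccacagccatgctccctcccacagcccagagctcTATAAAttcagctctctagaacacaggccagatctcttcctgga
Comp: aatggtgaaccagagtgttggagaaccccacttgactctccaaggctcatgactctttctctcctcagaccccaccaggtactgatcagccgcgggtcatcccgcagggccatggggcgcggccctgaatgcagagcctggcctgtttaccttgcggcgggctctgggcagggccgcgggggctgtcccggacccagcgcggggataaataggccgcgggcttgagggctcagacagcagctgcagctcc
Fap: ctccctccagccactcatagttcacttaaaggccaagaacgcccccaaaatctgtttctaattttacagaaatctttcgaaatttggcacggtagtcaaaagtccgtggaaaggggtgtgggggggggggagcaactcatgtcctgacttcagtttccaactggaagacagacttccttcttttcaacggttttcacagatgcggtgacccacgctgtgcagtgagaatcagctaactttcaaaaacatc
Tnc: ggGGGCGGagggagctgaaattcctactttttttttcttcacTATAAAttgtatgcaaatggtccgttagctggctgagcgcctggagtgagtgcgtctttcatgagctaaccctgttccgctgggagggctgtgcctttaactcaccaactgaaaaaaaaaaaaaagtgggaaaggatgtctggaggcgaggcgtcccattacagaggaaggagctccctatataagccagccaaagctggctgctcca
The motifs searched on both strands were the TATA box TATAAA, the CCAAT box CCAAT, the GC box GGGCGG, the AP-1 site TGANTCA, the TEAD site GGAATG, the RUNX site TGTGGT and the CArG box. A CArG box can contain TATAAA or CCAAT, and no other motif of the set contains another. Counted back from the annotated start, Postn held TATAAA at position -44 and Tnc at position -208, so 2 of the 7 promoters held it, against 12.9% of all 33469 promoters in the table. These are exact letter matches anywhere in the 250 bases, and a match does not show a working TATA box. Variants were not searched, such as the tatataag left in lower case near the start in the Tnc sequence. Tnc also held a GC box, found in 3 of the 7 promoters and in 30.5% of all. Comp and Fap held no match to any of the motifs. The TEAD site was found in 3 of the 7 (Thbs1, Thbs4 and Sparc) and in 12.1% of all promoters, the RUNX site in 1 (Sparc) and in 14.5%, and the CCAAT box in 1 (Thbs1) and in 34.0%. AP-1 sites and CArG boxes were found in none of the 7, against 6.34% and 1.50% of all promoters.

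Levels are given as TPM, which is scaled by library depth and transcript length and can be set side by side between genes. Ratios between the tissues are log2 ratios of depth-scaled counts (CPM) within an animal, scaled by the trimmed mean of M values (TMM) with a prior count of 2, and they are averaged over 3 animals with their standard error (SE). Fold changes, and the 1.5-fold mark used below for single animals, are ratios of the same CPM without the prior count. The libraries held 66420159 to 70705938 counts in lesions and 65823027 to 68345446 in the circle of Willis, so depth was even. Mitochondrial genes took 4.36% to 8.81% of lesion counts and 9.08% to 10.6% of circle of Willis counts. Cadherin 5 and smooth muscle myosin heavy chain, defining markers of endothelium and arterial smooth muscle, were detected in all 6 libraries. In tissue RNA of this kind, fewer cells of a type and less RNA per cell cannot be told apart.

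Periostin showed the widest separation between lesion and artery among the 10 genes. Postn (chr2:143656793-143688087, Rnor6) had 38.9, 1730 and 477.5 TPM in the lesions of animals 1, 2 and 3, against 3.34, 7.30 and 8.21 TPM in the circle of Willis of the same animals. The lesions did not overlap with the arteries, and the lesion of animal 2 was far above the other two. As counts these were 6021, 235224 and 72472 reads in lesions, against 493, 1010 and 1220 in the circle of Willis. The ratio was 12.6-fold in animal 1, 227-fold in animal 2 and 58.3-fold in animal 3, a mean log2 ratio of 5.78 ± 1.20 (SE, n = 3), and Postn ranked 4 of 15367 genes by that mean. Within the set of 10, Postn stood 4th, 2nd and 3rd by TPM in lesions 1, 2 and 3, and 8th, 7th and 6th in the matching arteries.

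**Figure D1:**
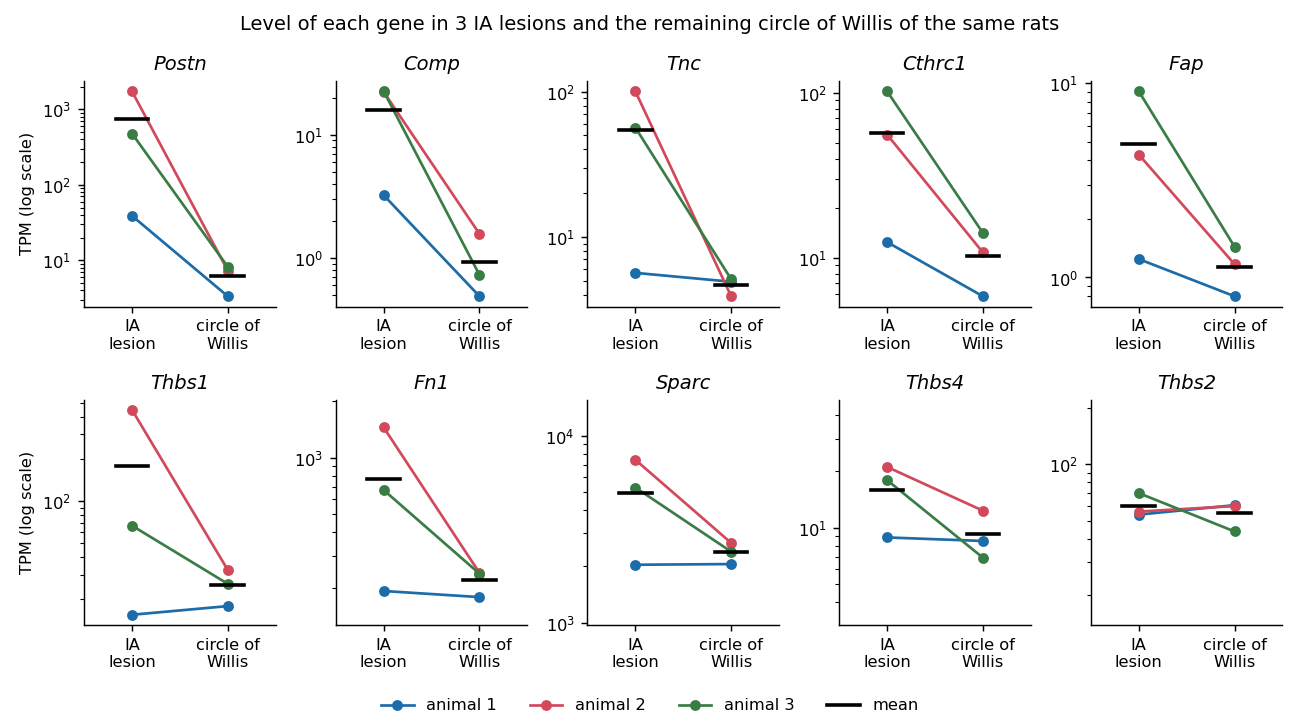
TPM of each of the 10 genes on a log axis in 3 IA lesions (left) and in the remaining circle of Willis (right), with 1 point per library, lines joining the tissues of 1 rat and bars at the means. Lesions of animals 2 and 3 are both over 1.5-fold their arteries for 9 of the genes. The lesion of animal 1 is so for 4 of them, and Thbs2 is so only in animal 3.

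Cartilage oligomeric matrix protein (Comp), the pentameric thrombospondin best known from cartilage and tendon, was the other gene with a large ratio in every rat. Comp (chr16:20798437-20807070) had 3.23, 22.2 and 22.5 TPM in lesions, against 0.490, 1.57 and 0.730 TPM in the circle of Willis. The tissues did not overlap, the lesions of animals 2 and 3 were nearly equal, and all arteries were low. The ratios were 7.17-fold, 13.6-fold and 30.9-fold in animals 1, 2 and 3, with a mean log2 ratio of 3.82 ± 0.61 (SE, n = 3). The lesion values rest on 374, 2253 and 2548 reads and the arterial ones on 54, 162 and 81, so the arterial ones carry more counting error.

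Thrombospondin 1, a trimeric protein of platelets and injured vessels that activates latent TGF-beta, ranged widely from lesion to lesion. Thbs1 (chr3:109862117-109873466) had 15.5, 447 and 66.9 TPM in lesions, against 17.9, 32.4 and 25.8 TPM in the circle of Willis. Lesion 1 lay below every artery, and lesion 2 was 28.8 times lesion 1. Its log2 ratios were -0.08, 3.73 and 1.38 (mean 1.67 ± 1.11, SE, n = 3), so the SE was large beside the mean, and without animal 2 the mean was 0.65. Markers of platelets, which carry thrombospondin 1 protein, were highest in the same library. Their summed TPM over 10 listed genes was 27.7, 275.6 and 122.2 in lesions, against 28.0, 34.6 and 32.9 in the arteries. Pf4 made up most of each sum, at 21.3, 231.9 and 113.1 TPM in lesions, against 24.1, 32.5 and 30.7 in the arteries. The median log2 ratio of the 6 tested markers was 0.57, 3.03 and 0.72 in animals 1, 2 and 3. Of these 6, 2 (Treml1 and Clec1b) were over 1.5-fold in every animal, against 2.75% of all genes tested. Ppbp, Gp6 and Tubb1 were listed at 0 in at least 1 library. The part of platelets in the Thbs1 values was not tested.

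Thrombospondin 2, the closest relative of thrombospondin 1 and an inhibitor of vessel growth, showed next to no separation. Thbs2 (chr1:56653938-56683731) had 53.8, 55.8 and 70.1 TPM in lesions, against 60.4, 59.8 and 43.7 TPM in the circle of Willis. The lesions of animals 1 and 2 were slightly below their own arteries and that of animal 3 was above, and the mean log2 ratio was 0.16 ± 0.26 (SE, n = 3). It was the steadiest gene of the set among lesions, with a highest value 1.30 times the lowest. Without animal 3 its mean log2 ratio was -0.10.

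Thrombospondin 4, a pentamer like Comp that is found in tendon, heart and vessel walls, lay between these. Thbs4 (chr2:22343727-22385855) had 8.89, 21.2 and 17.99 TPM in lesions, against 8.51, 12.4 and 6.93 TPM in the circle of Willis. Lesion 1 was below the artery of animal 2, so the tissues overlapped. The log2 ratio was 0.18, 0.71 and 1.38 in animals 1, 2 and 3 (mean 0.76 ± 0.35, SE, n = 3), and without animal 3 the mean was 0.45. Thbs3, the remaining thrombospondin gene and a pentamer as well, had a log2 ratio of 0.11 ± 0.19.

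Ratios between thrombospondins within a library do not depend on the scaling of that library. Thbs1 over Thbs2 was 0.289, 8.01 and 0.955 in lesions, against 0.296, 0.542 and 0.589 in the circle of Willis, so Thbs1 exceeded Thbs2 only in the lesion of animal 2. Comp over Thbs4 was 0.363, 1.05 and 1.25 in lesions, against 0.0576, 0.127 and 0.105 in the circle of Willis, and here the tissues did not overlap. Of this pair, Thbs4 was thus the more abundant in all arteries and in lesion 1, and Comp was slightly ahead in lesions 2 and 3.

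**Figure D2:**
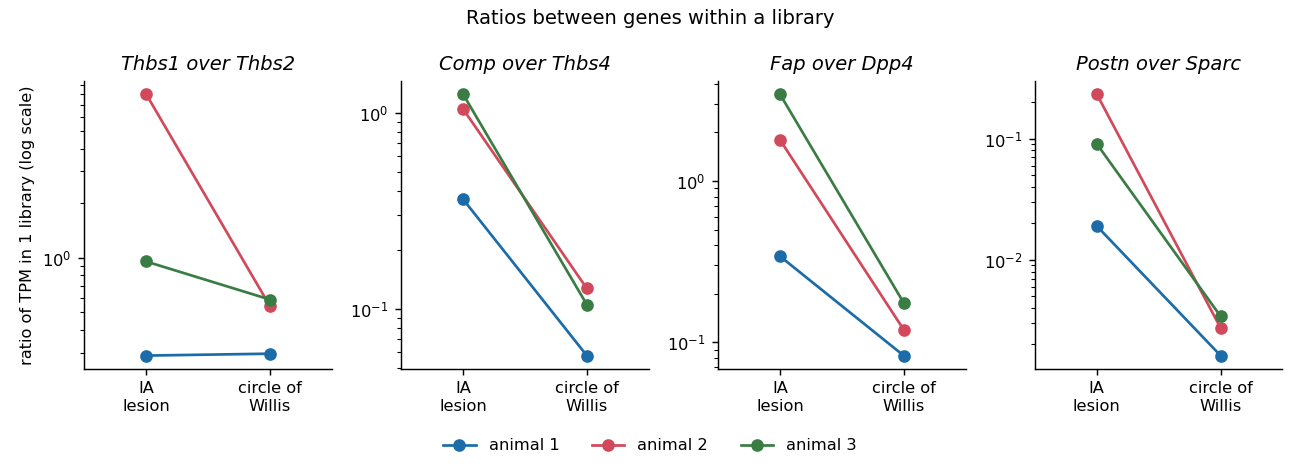
Ratio of the TPM of 2 genes in each library, on a log axis, with the IA lesion left, the circle of Willis right and lines joining the tissues of 1 rat. Comp over Thbs4, Fap over Dpp4 and Postn over Sparc are higher in each lesion than in any artery, whereas Thbs1 over Thbs2 is 0.289 in lesion 1 and 0.296 in its artery.

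Tenascin C, a large glycoprotein that loosens cell attachment and appears at sites of injury, was near its arterial level in animal 1 and far above it in the other animals. Tnc (chr5:79789671-79874671) had 5.65, 100.7 and 56.6 TPM in lesions, against 4.91, 3.90 and 5.11 TPM in the circle of Willis. The tissues did not overlap, but lesion 1 exceeded the highest artery only narrowly. The folds were 1.25, 24.8 and 11.1, and the mean log2 ratio was 2.81 ± 1.29 (SE, n = 3).

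Osteonectin, a collagen-binding calcium-binding glycoprotein, was the most abundant of the 10 genes in every library. Sparc (chr10:40742400-40764185) had 2041, 7419 and 5276 TPM in lesions, against 2058, 2669 and 2397 TPM in the circle of Willis. Lesions 2 and 3 were above all arteries and lesion 1 was level with its own, giving a mean log2 ratio of 0.89 ± 0.40 (SE, n = 3). Its relative Sparcl1, which antagonizes cell adhesion, had 1025, 836 and 543 TPM in lesions, against 1168, 1534 and 1803 TPM in the circle of Willis. All 3 Sparcl1 log2 ratios were below 0 (-0.07, -0.94 and -1.73), and its edgeR adjusted p was 0.256.

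Fibronectin, the glycoprotein on which cells assemble other matrix, followed the same order of animals. Fn1 (chr9:78900103-78969078) had 193.9, 1449 and 671 TPM in lesions, against 179.9, 242 and 239.9 TPM in the circle of Willis. Lesion 1 lay within the range of the arteries and the other lesions above it, and the mean log2 ratio was 1.41 ± 0.66 (SE, n = 3), or 0.86 without animal 2. An annotated gene on the opposite strand overlaps its end, and the strand setting of the counting is not given here. Postn over Fn1 was 0.20, 1.19 and 0.711 in lesions, against 0.0186, 0.0301 and 0.0342 in the circle of Willis, with no overlap between the tissues.

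Cthrc1, a secreted protein first described in injured rat arteries, and Fap were higher in each lesion than in the artery of the same rat, with ratios that were largest in animal 3. Cthrc1 (chr7:77966722-77977004) had 12.5, 55.9 and 102 TPM in lesions, against 5.85, 10.8 and 14.2 TPM in the circle of Willis. Lesion 1 was below the artery of animal 3, so the tissues overlapped across rats although each pair differed, with a mean log2 ratio of 2.12 ± 0.48 (SE, n = 3). Fap (chr3:48467781-48536235) had 1.24, 4.29 and 9.07 TPM in lesions, against 0.801, 1.17 and 1.44 TPM in the circle of Willis. It too overlapped through lesion 1, its mean log2 ratio was 1.73 ± 0.55 (SE, n = 3), and its values rest on 137, 414 and 978 reads in lesions, against 84, 115 and 152 in the circle of Willis.

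Dpp4, the membrane protease closest to Fap in sequence, went the other way. Dpp4 had 3.64, 2.38 and 2.63 TPM in lesions, against 9.66, 9.76 and 8.16 TPM in the circle of Willis. The mean log2 ratio was -1.67 ± 0.23 (SE, n = 3), with an edgeR adjusted p of 0.168. Each lesion was lower than every artery. Fap over Dpp4 was 0.342, 1.80 and 3.45 in lesions, against 0.0829, 0.12 and 0.176 in the circle of Willis, so Fap exceeded Dpp4 in lesions 2 and 3. Of the 6 genes listed as relatives and partners of Fap, Plaur (the urokinase receptor, mean log2 ratio 2.17) was over the 1.5-fold mark in every animal and Dpp4 was under 1/1.5 in every animal. Over all genes tested, 2.75% were over 1.5-fold and 5.51% under 1/1.5 in every animal. Serpinf2 (alpha-2-antiplasmin, the inhibitor that circulating FAP cleaves, mean log2 ratio 0.96) was at the mark in animal 1, passing it only without the prior count, on 76 reads in the lesion and 52 in the artery.

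**Figure D3:**
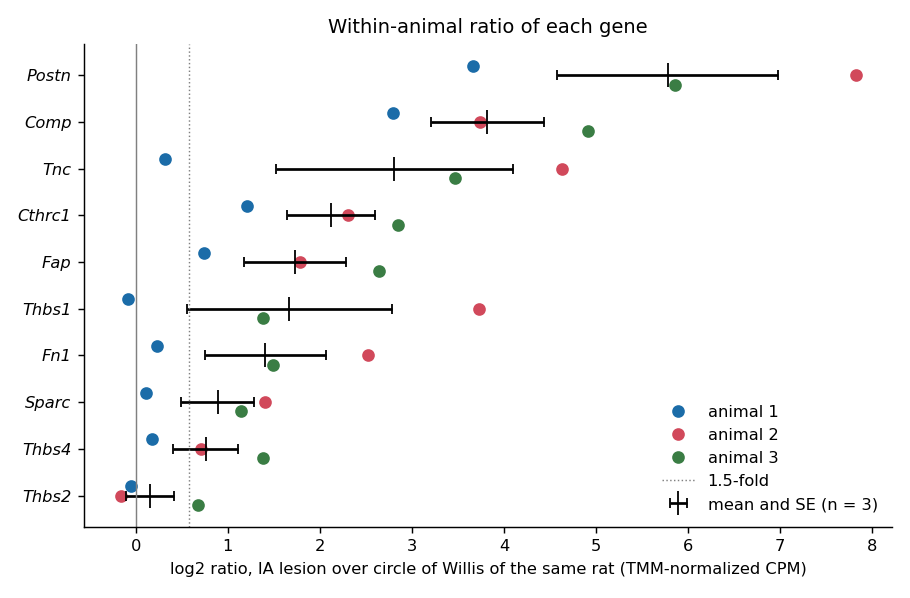
Log2 ratio of IA lesion over circle of Willis of the same rat for each of the 10 genes, with 1 point per animal, the mean and its SE (n = 3) and dotted and solid lines at 1.5-fold and at no difference. Animal 1 has the lowest ratio for 9 of the 10 genes, and only Postn, Comp, Cthrc1 and Fap lie past the dotted line in all 3 animals.

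Across the 10 genes, 4 were over 1.5-fold in all 3 animals (Postn, Comp, Cthrc1 and Fap), against 2.75% of the 15367 genes tested, and none was under 1/1.5 in all 3, against 5.51%. The TPM of all lesions exceeded that of all arteries for 3 genes (Postn, Comp and Tnc), against 8.34% of genes. Since the list was picked on this contrast, nothing is read from these counts. By animal, 4 of the 10 were over 1.5-fold in animal 1, against 8.51% of genes, 9 in animal 2 (all except Thbs2), against 18.6%, and 10 in animal 3, against 17.8%. The median log2 ratio of the 10 genes was 1.70, with 0.28, 2.41 and 2.06 in animals 1, 2 and 3, against -0.03 over all genes tested. Without animal 1, 9 of the genes were over 1.5-fold in both remaining animals, a mark that 11.6% of 15601 genes then passed.

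No gene passed an adjusted p of 0.05 by the edgeR quasi-likelihood test with animal as a block (0% of 15367), and the adjusted p of the 10 genes ran from 0.168 for Comp to 0.687 for Thbs2. At an unadjusted p under 0.05, 7 of the 10 were higher in lesions (all except Thbs1, Thbs2 and Sparc), against 8.63% of all genes higher and 12.0% lower. DESeq2, run on the same counts as an alternative, called 7 of the 10 higher at an adjusted p of 0.05 (all except Thbs2, Thbs4 and Fn1), against 5.81% of 14473 genes higher and 6.84% lower, and limma-voom called none. The tools thus differ on these genes, and the cause was not tested. All 10 genes had their lowest lesion TPM in animal 1, 6 had the highest in animal 2 and 4 in animal 3.

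That spread was wider among lesions than among arteries for 9 of the 10 genes, the exception being Thbs2. The highest lesion was 44.5 times the lowest for Postn, 28.8 times for Thbs1 and 17.8 times for Tnc, whereas among arteries the widest ratio of the set was 3.20, for Comp. Over all genes with a value in every library, 71.6% of 15193 also had the larger spread among lesions.

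Summed over the 10 genes, the libraries held 2374.5, 11305 and 6770.2 TPM in lesions, against 2339.7, 3040.2 and 2742.8 TPM in the circle of Willis (mean 6816.6 ± 4465.4 in lesions and 2707.6 ± 351.58 in the circle of Willis, SD, n = 3 each). Lesion 1 was therefore at the arterial level by this sum. Sparc made up 86.0%, 65.6% and 77.9% of it in lesions, against 87.9%, 87.8% and 87.4% in the circle of Willis. Postn made up 1.64%, 15.3% and 7.05% in lesions, against 0.143%, 0.24% and 0.299% in the circle of Willis. Even lesion 1, which had the arterial sum, thus held a larger Postn share than any artery. Without Sparc the sums were 333.57, 3886.9 and 1494.2 TPM in lesions, against 282.07, 371.52 and 346.04 TPM in the circle of Willis.

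**Figure D4:**
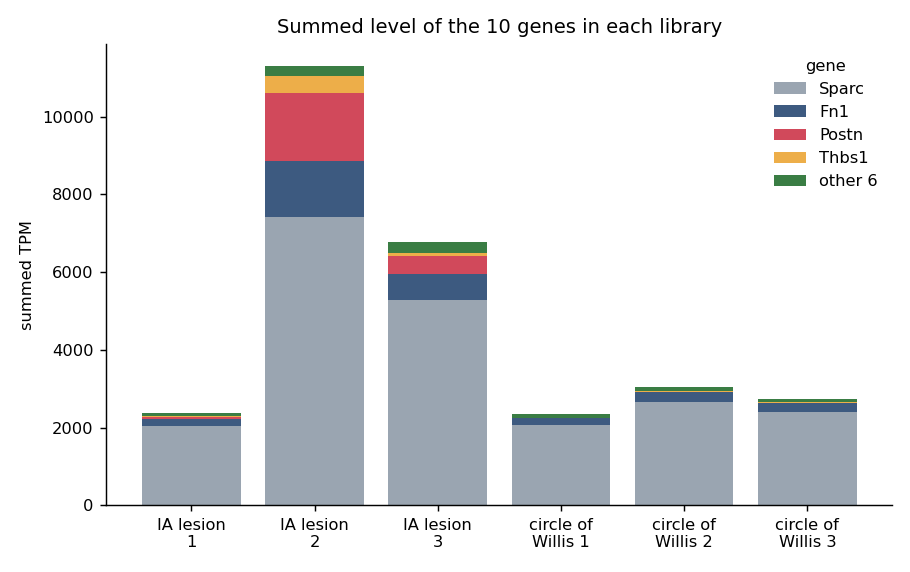
Summed TPM of the 10 genes in each library, stacked by gene, with the 3 IA lesions left of the 3 circle of Willis libraries. Sparc is the main part of every bar, and the bars of lesions 2 and 3 (11305 and 6770.2 TPM) exceed those of the arteries (2339.7 to 3040.2 TPM) while that of lesion 1 (2374.5 TPM) does not.

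By mean TPM in lesions the order was Sparc, Fn1, Postn, Thbs1, Thbs2, Cthrc1, Tnc, Thbs4, Comp and Fap, and only the top pair of neighbours, Sparc and Fn1, had ranges that did not overlap. In the circle of Willis the order was Sparc (2374 TPM), Fn1 (220.7), Thbs2 (54.6), Thbs1 (25.3), Cthrc1 (10.3), Thbs4 (9.27), Postn (6.28), Tnc (4.64), Fap (1.14) and Comp (0.929). There the neighbours from Cthrc1 to Tnc overlapped step by step, as did Fap and Comp, and the other steps did not.

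Related lists had medians nearer to 0 than the 10 genes. The 10 genes were chosen with these values known, so nothing is read from that difference, which was not tested. Of 18 other matricellular genes tested, 3 were over 1.5-fold in every animal (Spp1, Wisp2 and Wisp3) and 1 was under 1/1.5 in every animal (Spock2). Their median log2 ratio was 0.56, and 4 were higher and 1 lower at an unadjusted edgeR p under 0.05. None passed the adjusted p, while DESeq2 called 3 higher and 1 lower. Over all genes tested, 2.75% were over 1.5-fold and 5.51% under 1/1.5 in every animal. At that unadjusted p 8.63% of all genes were higher and 12.0% lower, and DESeq2 called 5.81% higher and 6.84% lower. Osteopontin (Spp1), a phosphoprotein of bone and of activated macrophages, had 126.5, 2701 and 1129 TPM in lesions, against 29.0, 88.4 and 100.7 TPM in the circle of Willis, the same order of animals as Postn in the lesions. Its log2 ratio was 3.54 ± 0.76 (SE, n = 3). Wisp2, a CCN family protein, had 108.9, 330.5 and 170.7 TPM in lesions, against 70.3, 143.9 and 104.2 TPM in the circle of Willis. Wisp3 had a log2 ratio of 1.23 at levels under 0.3 TPM, that is, at a trace. Spock2, a proteoglycan of the Sparc family, had 9.55, 15.5 and 4.64 TPM in lesions, against 38.8, 66.6 and 28.2 TPM in the circle of Willis, with no overlap.

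Tenascin N (Tnn), chosen for mention after its values were seen, had 0.138, 6.79 and 7.52 TPM in lesions, against 0.259, 0.0528 and 0.0907 TPM in the circle of Willis. Like Tnc it stood high in lesions 2 and 3, but lesion 1 was below its own artery, with log2 ratios of -0.76, 6.74 and 6.26.

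Matrix partners, the collagens and enzymes that these proteins bind or work with, had a median log2 ratio of 1.22 over 13 tested genes (0.15, 2.02 and 1.30 in animals 1, 2 and 3). Of them, 7 were higher and 1 (Dcn) lower at an unadjusted edgeR p under 0.05, DESeq2 called 8 higher, and none passed the edgeR adjusted p. The shares over all genes were 8.63% higher and 12.0% lower at that unadjusted p, and 5.81% higher by DESeq2. Aggrecan (Acan), a cartilage proteoglycan that binds Comp, had 2.61, 25.2 and 15.5 TPM in lesions, against 0.0473, 0.168 and 0.0908 TPM in the circle of Willis. Its log2 ratio of 6.72 ± 0.50 (SE, n = 3) had an edgeR adjusted p of 0.0976, the lowest of any gene tested. Bmp1, the procollagen protease that binds periostin, had a log2 ratio of 0.97 ± 0.16, with 0.66, 1.19 and 1.05 in the 3 animals. Collagen I alpha 1 (Col1a1) had 447, 3605 and 2953 TPM in lesions, against 363, 449 and 334 TPM in the circle of Willis, so lesion 1 was within the arterial range here as well.

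Receptors of the 10 proteins had a median log2 ratio of 0.16 over 20 tested genes. None of them was over 1.5-fold or under 1/1.5 in every animal, against 2.75% and 5.51% of all genes tested. The most abundant, Calr (0.39) and Itgb1 (0.13), which encode a thrombospondin-binding chaperone and the common integrin beta chain, had small ratios. Larger ones, named after their values were seen, were those of the scavenger receptor Cd36 (-0.11, 2.25 and 2.21 in animals 1, 2 and 3), the proteoglycan Sdc1 (0.01, 1.89 and 1.62) and the fibronectin receptor chain Itga5 (-0.15, 2.25 and 0.48). At an unadjusted edgeR p under 0.05, 2 of the 20 were higher, and DESeq2 called 2 higher (Cd36 and Sdc1). Over all genes, 8.63% were higher and 12.0% lower at that edgeR p, and DESeq2 called 5.81% higher. Among 15 genes of the TGF-beta axis the median was 0.13, 4 were higher and 1 lower at that p, and Ltbp2 and Tgfb2 were over 1.5-fold in every animal. Ltbp2, a fibrillin-like protein of elastic fibers, had a log2 ratio of 3.13 ± 0.42, with an edgeR adjusted p of 0.145. Among 17 adhesive glycoproteins the median was 0.32, 5 were higher and 3 lower at that p, and Matn2 (-0.96) was under 1/1.5 in every animal.

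**Figure D5:**
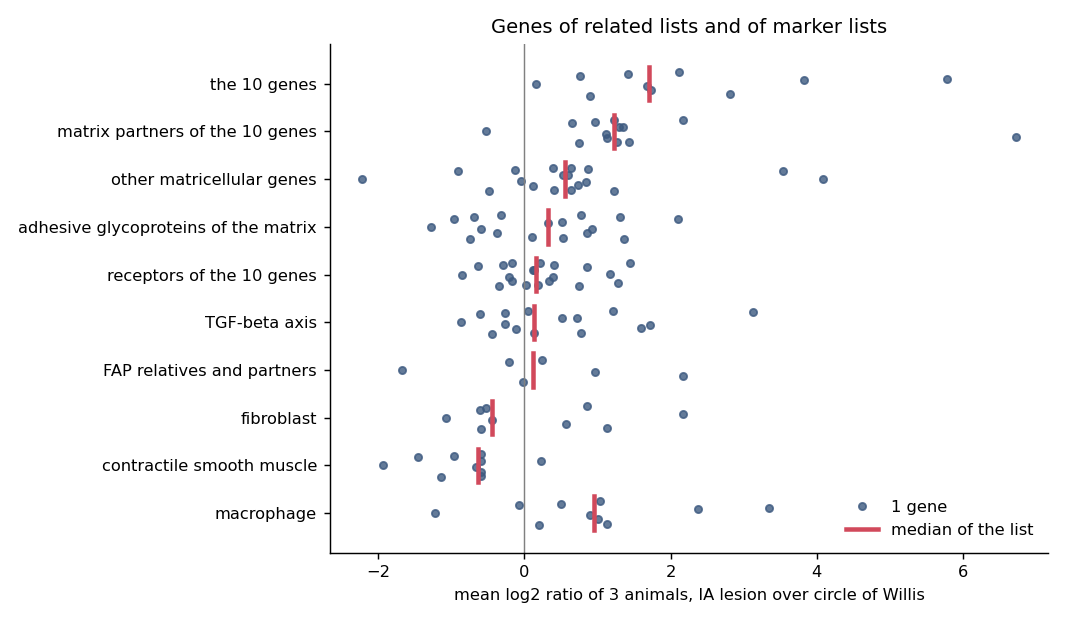
Mean log2 ratio of 3 animals, IA lesion over circle of Willis, for each tested gene of the 10, of 6 related lists and of 3 marker lists, with red bars at list medians. The median is 1.70 for the 10 genes, 1.22 for matrix partners and between 0.11 and 0.56 for the other related lists. The 10 genes were chosen with these values known.

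Markers of cell types moved between the libraries as well. For the marker counts below, the shares over all genes tested were 2.75% over 1.5-fold and 5.51% under 1/1.5 in every animal. Fibroblast markers summed to 2139, 7435 and 5630 TPM in lesions, against 2415, 3495 and 2456 TPM in the circle of Willis, but this sum holds Col1a1 and Col3a1. The median log2 ratio of the 9 tested genes was -0.45, with 0 over 1.5-fold and 1 (Pi16) under 1/1.5 in every animal. Macrophage markers summed to 1080, 2085 and 5294 TPM in lesions, against 804.9 TPM, 668.9 TPM and 788.3 TPM in the circle of Willis. Gpnmb was the largest part of each lesion sum, at 403.1, 628.2 and 2806 TPM, against 69.1, 134.1 and 74.8 TPM in the arteries. The median log2 ratio of the macrophage list was -0.11, 1.41 and 1.62 in animals 1, 2 and 3. Of 10 tested, 2 were over 1.5-fold in every animal (Cd68 and Gpnmb) and 1 was under 1/1.5 (Cd163). Neutrophil markers summed to 30.8, 443.2 and 92.4 TPM in lesions, against 21.3, 27.3 and 32.3 TPM in the circle of Willis, with 3 of 10 over the mark (S100a8, S100a9 and Mmp8). S100a8 and S100a9 made up most of the lesion 2 sum (139.6 and 226.3 TPM), while the granule genes Mpo and Ngp went the other way in animals 2 and 3. Mpo was near 0 throughout, at 0.177, 0.0323 and 0.00722 TPM in lesions, against 0.163, 0.0872 and 0.0737 TPM in the circle of Willis. Ngp had log2 ratios of 0.77, -1.62 and -3.75. Lesions 2 and 3, where most of the 10 genes stood highest, thus also held the higher sums of these immune markers, and lesion 1 the lowest of the lesions.

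Endothelial markers summed to 728.4, 393.5 and 376.7 TPM in lesions, against 811.7, 796.1 and 950.7 TPM in the circle of Willis, with no overlap. Their median log2 ratio over 9 tested genes was -0.07, -1.10 and -0.92 in animals 1, 2 and 3. None was over 1.5-fold or under 1/1.5 in every animal. Cldn5 was the largest part of each sum, at 372.5, 151.7 and 138.0 TPM in lesions, against 403.7, 370.2 and 502.4 in the arteries. Emcn went against the sum, with log2 ratios of 0.60, -0.21 and 1.67, as did Erg in animal 2 (0.84). The endothelial markers thus did not all move together. Meningeal and arachnoid markers summed to 2267, 1190 and 970.8 TPM in lesions, against 2582, 2851 and 1767 TPM in the circle of Willis. Their medians were 0.08, -1.45 and -0.92, and 1 of 7 was under 1/1.5 in every animal (Slc47a1). By sum and median, then, lesion 1 stood nearest to its own artery for both lists and lesions 2 and 3 were lower.

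Contractile smooth muscle markers summed to 6863, 8901 and 3197 TPM in lesions, against 9199, 5240 and 15200 TPM in the circle of Willis, which overlapped. The median log2 ratio of this list was -0.31, 0.18 and -2.33 in animals 1, 2 and 3. Of 10 tested, 0 were over 1.5-fold and 1 (Synpo2) was under 1/1.5 in every animal. Choroid plexus markers reached 13970 TPM in lesion 2, against 360 and 406.5 TPM in the other lesions and 201.5 to 365.6 TPM in the circle of Willis, so that lesion also held far more of this tissue's transcripts. Comp is best known from cartilage and tendon, so markers of both were read. Chondrocyte markers summed to 117.3, 78.9 and 78.9 TPM in lesions, against 105.6, 112.2 and 282.3 TPM in the circle of Willis, and the largest part of the sum in all arteries was Cytl1. Acan and Sox9 (mean log2 ratio 2.28) were over the mark in every animal, and Col2a1, the defining cartilage collagen, had 0.987, 1.50 and 30.2 TPM in lesions, against 0.81, 0.134 and 0.378 TPM in the circle of Willis. Cytl1, Chad, Hapln1 and Col9a1 went the other way in animals 2 and 3, with mean log2 ratios of -1.68, -1.26, -1.26 and -0.41. The markers of this list thus did not move together. Tendon markers summed to 293, 149 and 165.5 TPM in lesions, against 410, 382.5 and 342.5 TPM in the circle of Willis. Fmod and Cilp made up most of these sums. Of 7 tested tendon genes, 0 were over 1.5-fold and 1 (Mkx) was under 1/1.5 in every animal. Scx (log2 ratios 0.55, 2.26 and 0.98) and Cilp2 (0.91, 0.14 and 3.14) went against the sum. The tendon markers thus did not move together either. The part of any of these cell types, or of mitochondrial share, in the values of the 10 genes was not tested.

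Among the genes whose 3 within-animal log2 ratios lay nearest to those of Postn, by root mean square difference over the 3 animals, were Mmp12 (1.40), Mcemp1 (1.49), Acan (1.52) and LOC103689942 (1.81). LOC103689942 was at 0 TPM in all 3 arteries, so the size of its ratios depends on the prior count. Mmp12, the macrophage elastase, had 12.0, 44.7 and 70.2 TPM in lesions, against 0.416, 0.770 and 1.02 TPM in the circle of Willis. Nearest to Comp were Acpp (0.242), Trim55 (0.416), RGD1559482 (0.417), Cd300lb (0.519) and Acod1 (0.523). All of these except RGD1559482 were at or under 0.303 TPM in the arteries, and Acod1 was lowest there (0.0091 to 0.0423 TPM). Nearest to Thbs4 were Prdm8 (0.0327), S1pr2 (0.0582), Ogfrl1 (0.0591), Fignl1 (0.0605) and Wdhd1 (0.0703).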

How the data were processed

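Poly(A) RNA was sequenced by the authors from 3 IA lesions and, in each of these rats, the rest of the circle of Willis. A further pair was left out by them for low RNA yield. They mapped reads to Rnor6 in the CLC genomics workbench. The deposited table holds, per gene and library, counts, RPKM and TPM made by the authors, and a further signal that they label CPM but whose libraries sum to different totals. The scaling of that deposited signal, the annotation release and the strand setting are not given in the sources used here, and it and the RPKM were not analysed. A further 24 columns with the authors' own comparisons (group means, fold changes, p-values) were not used.

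The 10 genes and all lists were chosen with earlier results of these data known. Counts were scaled by TMM and filtered with filterByExpr, which left 15367 of 22081 genes, and tested by the edgeR 4.0.16 quasi-likelihood test (R 4.3.3) with animal as a block and Benjamini-Hochberg adjustment over all genes. The test was tried on simulated data first. DESeq2 1.42.0, limma 3.58.1 (voom), other scalings, filters and prior counts, no block, and leaving out each animal were alternatives. Both tissues of a pair come from 1 rat. The deviations of paired libraries from their group means correlated at 0.389, 0.300 and 0.0688 in animals 1, 2 and 3. Genes of the related and marker lists are named if over 1.5-fold the same way in all 3 animals (up to 4 a list), among the 2 highest by TPM, or a defining marker near 0. Other genes named were chosen after their values were seen. With animal as a block, p-values set the mean tissue difference within rats against the spread of that difference over these 3 rats. Of the genes nearest to Postn, 1 is not reported here.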

Additional observations from a re-analysis of the deposited data

How the results depend on the processing

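Over 10 genes and the 14 alternatives that give a test, 132 of 140 mean log2 ratios kept their direction and their side of the adjusted p threshold. All 10 kept their direction on TPM with a pseudocount of 0.1, which gives no test. Of the others, 7 passed the threshold, all with DESeq2, and 1 turned round: Thbs2, at -0.10 without animal 3 (its range over leaving out each animal was -0.10 to 0.32). DESeq2 called 1831 genes in all and 27 of the related lists, against 0 and 0 with edgeR, where 3166 genes had an unadjusted p under 0.05. Without the replicate block, which pairs the tissues of a rat, edgeR called 1 gene and none of the 10. Limma-voom called 0 genes, with 3494 at an unadjusted p under 0.05. The cause of these differences was not tested. The number of the 10 over 1.5-fold in every animal was 4 to 9 when an animal was left out, 9 being without animal 1. The same counts over all genes were 423 higher and 847 lower with all animals, 1803 and 1853 without animal 1, 596 and 1476 without animal 2, and 674 and 1068 without animal 3, as fewer animals have to pass. The median log2 ratio of the 10 genes was 2.42 without animal 1 and 1.27 without animal 2. The summed TPM of the circle of Willis was 3192.1 when mitochondrial genes were left out of the TPM, against 2707.6. The median over all genes stayed within 0.05 of 0 on the log2 scale under every scaling tried. Among the 10 genes, the arterial levels of Comp and Fap rest on the fewest reads and are the ones that depth limits most.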

Other observations

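Proliferation markers (Mki67, Top2a, Ccnb1, Cdk1, Aurkb and Birc5) summed to 8.18, 69.8 and 88.4 TPM in lesions 1, 2 and 3, against 9.05, 12.0 and 16.1 TPM in the circle of Willis. As with most of the 10 genes, the lesions of animals 2 and 3 were high and that of animal 1 was at the arterial level. Hypothalamus and pituitary markers summed to 14.5, 8.3 and 5.79 TPM in lesions, against 57.2, 44.5 and 920 TPM in the circle of Willis, and oligodendrocyte markers to 634, 4532 and 746.6 TPM in lesions, against 413.6, 584.7 and 663.1 TPM in the circle of Willis.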
